A study of Drosophila melanogaster with 2 samples.

Results

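The general transcription and Mediator genes of the fly are taken here as the protein-coding genes whose symbol begins with MED, Taf or TfII, MED and Taf being followed by a digit. By that rule 49 of the 13945 protein-coding genes on the 6 major chromosome arms were members: 25 MED genes, 15 Taf genes and 9 TfII genes. Their promoters were examined in ChIP-seq of Gcm2, a zinc-containing DNA-binding factor that works with the related factor Gcm when glia and blood cells form. The chromatin came from whole embryos of both sexes, 0 to 24 h old, of one stable transgenic line whose Gcm2 bears GFP at the C terminus, and it was precipitated with an anti-GFP antibody. The promoter that drives the tagged gene is not given in the sources used here. The 2 libraries are labelled biological replicates 2 and 3 and form the sole group. A control was used by the authors in calling regions, but mock or untagged chromatin was not analysed here. Whole embryos hold many cell types, so strong binding in few cells and weak binding in many cannot be told apart.

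Transcription by RNA polymerase II starts from a preinitiation complex assembled at the promoter. TFIID, built from the TATA-binding protein and the TAF proteins, contacts core promoter elements. TFIIA stabilises the bound TATA-binding protein, TFIIB recruits the polymerase, TFIIF enters with it, TFIIE brings in TFIIH, and TFIIS helps a stalled polymerase resume. Mediator connects DNA-bound activators to this machinery. Its tail module receives activators, its head and middle modules contact the polymerase, and MED14 is the scaffold that joins them. Most of these proteins are needed in every cell, and their genes are commonly described as housekeeping genes.

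The sequences below lay under the strongest summits of members in the authors' final list of regions. A summit is the strongest point of a deposited region. The windows were picked for holding a searched word, not by strength. Each is the part, free of untranslated regions, of the window reaching 100 bp to either side of the summit, on the plus strand of dm6. MED7 and TfIIA-L, also in that list, held no searched word in that part, and MED16 held none in its window. They are not shown. The first set holds the windows in which the word TTGCCA was found on either strand, in capitals. This word was chosen after the values were seen. MED30 is shown at 3L:654209-654362, MED4 at 3L:7250585-7250717, Taf2 at 3L:9888684-9888761 and Taf4 at 3L:16113481-16113681.
MED30: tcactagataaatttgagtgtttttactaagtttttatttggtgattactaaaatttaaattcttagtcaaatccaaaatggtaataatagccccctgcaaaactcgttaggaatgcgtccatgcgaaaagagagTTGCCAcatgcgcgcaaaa
MED4: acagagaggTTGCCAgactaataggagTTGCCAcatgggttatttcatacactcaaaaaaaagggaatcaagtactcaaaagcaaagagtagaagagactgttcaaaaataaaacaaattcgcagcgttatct
Taf2: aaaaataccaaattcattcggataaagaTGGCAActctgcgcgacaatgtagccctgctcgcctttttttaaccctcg
Taf4: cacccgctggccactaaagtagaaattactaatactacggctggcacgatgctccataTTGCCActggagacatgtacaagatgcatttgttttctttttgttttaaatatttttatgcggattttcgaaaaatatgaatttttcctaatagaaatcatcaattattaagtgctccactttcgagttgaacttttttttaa

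The second set holds windows with a known promoter word in capitals. In MED17 the capitals mark the DNA replication-related element TATCGATA, which contains the BEAF-32 core CGATA on both strands, and 2 stretches that read TATAAA on the other strand. In MED27 one run of capitals joins TATAAA with CGATA read on the other strand. In MED15 they mark the GAGA factor word GAGAGAG, and in TfIIA-S the CGATA core. The windows are 3R:18188934-18189071, 3R:5654914-5655114, 2L:472319-472519 and 3R:23891061-23891235.
MED17: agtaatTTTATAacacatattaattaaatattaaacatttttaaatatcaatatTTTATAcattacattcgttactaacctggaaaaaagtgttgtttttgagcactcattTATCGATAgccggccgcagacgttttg
MED27: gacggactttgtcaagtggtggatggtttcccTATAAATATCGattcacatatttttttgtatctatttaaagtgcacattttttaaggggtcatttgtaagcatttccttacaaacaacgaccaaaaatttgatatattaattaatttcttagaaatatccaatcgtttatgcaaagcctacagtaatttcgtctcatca
MED15: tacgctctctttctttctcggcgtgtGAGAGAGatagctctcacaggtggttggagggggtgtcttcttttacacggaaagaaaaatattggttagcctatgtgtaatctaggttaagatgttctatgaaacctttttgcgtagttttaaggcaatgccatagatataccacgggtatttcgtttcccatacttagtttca
TfIIA-S: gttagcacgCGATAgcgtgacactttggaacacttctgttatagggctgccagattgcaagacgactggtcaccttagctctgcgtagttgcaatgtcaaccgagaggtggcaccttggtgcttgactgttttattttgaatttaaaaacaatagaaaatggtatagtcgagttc

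The authors' final list, made from both replicates by the irreproducible discovery rate (IDR), held 2177 regions, the strongest by signal of 30000 pooled candidates. Signal is the authors' own enrichment value, without a replicate error, and it is used here to order regions within a list. The final list ran from 1029 down to 57.8, with a median of 82.4. At a distance of up to 1 kb from a transcription start site (TSS), IDR summits were found for 11 of the 49 members, or 22.4% (95% Wilson interval 13 to 35.9). Of all protein-coding genes, 12.7% had one (1766 of 13945). Of those with a coding TSS on the other strand within 1 kb upstream, 21.5% had one (1084 of 5052). The MED genes had 7 of 25 (28%, interval 14.3 to 47.6), the Taf genes 2 of 15 (13.3%, 3.74 to 37.9) and the TfII genes 2 of 9 (22.2%, 6.32 to 54.7). The Taf share was near the share of all genes, and the 3 intervals overlap, so no order of the groups stands out of the counting error. These intervals cover counting error only, and no test was made over the list.

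**Figure D1:**
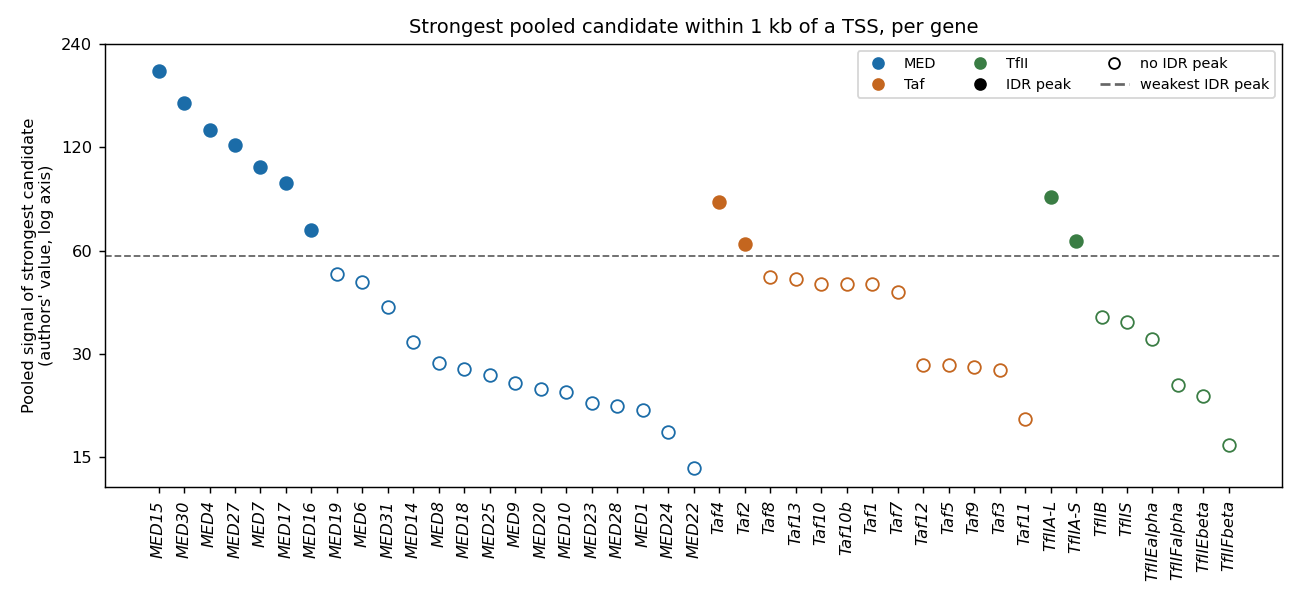
Pooled signal (authors' value, log axis) of the strongest candidate within 1 kb of a TSS for the 43 members that had one, ordered by signal within each group. Filled points have an IDR peak, and the dashed line is the weakest IDR peak, at 57.8. The 6 strongest points are MED genes, and 6 Taf genes sit close together between 45.4 and 50.4, just under the line. Of these, Taf10 and Taf10b share a region.

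Of the MED genes with an IDR summit, 3 were assigned here to the head module. MED30, a subunit found in animals but not in budding yeast, had a pooled signal of 161 and rank 266, with 75.7 (rank 334) in replicate 2 and 85.9 (rank 194) in replicate 3. Its region (3L:654077-654540) had its summit 220 bp upstream of the MED30 TSS and 54 bp from the TSS of Rev1, a translesion DNA polymerase gene on the opposite strand. MED27 had a pooled signal of 122 and rank 495, with 73.8 (rank 372) in replicate 2 and 48.6 (rank 765) in replicate 3. Its summit (region 3R:5654782-5655245) lay between the divergent starts of MED27, at 125 bp, and elm, at 153 bp. MED17, which binds several other head subunits, had a pooled signal of 94.3 and rank 824, with 54.3 (rank 706) in replicate 2 and 40.1 (rank 1116) in replicate 3. The MED17 summit (region 3R:18188802-18189265) was 38 bp upstream of its own TSS. All of these ranked inside the top 2177 of 30000 regions in both libraries.

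The middle module gave MED4 and MED7, and both were strong in each library. MED4 had a pooled signal of 135 and rank 397, with 69 (rank 430) in replicate 2 and 58.4 (rank 513) in replicate 3. Its summit (region 3L:7250453-7250916) was 158 bp upstream of the TSS with no other coding gene start within 1 kb, while the start of a non-coding antisense RNA, asRNA:CR43470, was 45 bp away. MED7 had a pooled signal of 105 and rank 673, with 44.5 (rank 1048) in replicate 2 and 58.7 (rank 508) in replicate 3. Its summit (region 3R:10760860-10761323) was 60 bp upstream, and in both replicates the strongest summit was at the same base. Cap-H2, a condensin II gene on the opposite strand, started 218 bp from this summit.

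The tail module gave MED15 and MED16. MED15, the subunit that many activators contact in yeast, had the highest signal of any member, 200 at rank 148, with 125 (rank 104) in replicate 2 and 67 (rank 372) in replicate 3. Its summit was also the farthest of the called ones from the member's own TSS, 594 bp upstream (region 2L:472187-472650), and the start of CG4297 was nearer, at 219 bp. MED16 had the lowest signal of the called MED genes, 68.9 at rank 1551, with 32.5 (rank 1988) in replicate 2 and 35.5 (rank 1442) in replicate 3. The MED16 summit (region 2R:22182860-22183323) lay 46 bp upstream of its TSS, with CG11170 starting 213 bp away on the other strand. By module, IDR summits lay at 3 of 11 head, 2 of 8 middle and 2 of 5 tail genes and not at MED14. The module of each gene was assigned from general knowledge of the complex, and with so few genes the shares (27.3%, 25% and 40%) have intervals that overlap. A different placement of MED30 or MED27 would change these shares.

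Among the TFIID genes, Taf4 and Taf2 had an IDR summit. Taf4, which holds the core of TFIID together with its partner Taf12, had a pooled signal of 83.4 and rank 1063, with 34.7 (rank 1737) in replicate 2 and 59.4 (rank 495) in replicate 3. The Taf4 summit (region 3L:16113349-16113812) was 209 bp upstream of the nearest of its TSSs and lay in an annotated intron. Taf2, which contacts the initiator element at the start site, had a pooled signal of 62.7 and rank 1838, with 39.9 (rank 1317) in replicate 2 and 19.9 (rank 4558) in replicate 3. Its summit (region 3L:9888499-9888962) was 48 bp upstream of Taf2 and 31 bp from the start of CalpB, a calpain protease gene on the other strand. Taf2 was thus close to the weakest IDR peak and was outside the strongest 2177 regions of replicate 3.

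Of the TfII genes, both that were called encode TFIIA subunits. TfIIA-L, whose product is cut into the 2 larger TFIIA subunits, had a pooled signal of 86.1 and rank 991, with 53.9 (rank 719) in replicate 2 and 33 (rank 1654) in replicate 3. It was the single called member with its summit downstream of its nearest TSS, at 33 bp, in a 5′ UTR (region 3R:27253231-27253694). The gene has 2 TSSs, and this one lies inside it, the 5′ end being at 3R:27251112. The start of pll, on the opposite strand, was 281 bp from the summit. With the 5′ end alone TfIIA-L was not called. TfIIA-S, the small subunit gene, had a pooled signal of 64 and rank 1766, with 44.2 (rank 1062) in replicate 2 and 21.1 (rank 4044) in replicate 3. Its summit (region 3R:23890903-23891366) was 75 bp upstream, with no other coding gene start within 1 kb. The third TFIIA symbol, TfIIA-S-2, had no candidate in any list. Like Taf2, TfIIA-S was within the strongest 2177 regions in replicate 2 alone.

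Most members without an IDR summit still had a candidate region. A pooled candidate of any strength lay within 1 kb of 43 of the 49 members (87.8%), against 62.6% of all protein-coding genes. No candidate in any of the 3 candidate lists was found at 3 members, or 6.12% (interval 2.1 to 16.5), against 27.6% of all genes. These were MED21 of the middle module, Taf12L (also rye), a testis-specific paralog of Taf12, and TfIIA-S-2. MED11, MED26 and Taf6 had no pooled candidate but a weak one in a replicate: MED11 ranked 17691 in replicate 3, MED26 ranked 15132 in replicate 2, and Taf6 ranked 17278 and 23362 in replicates 2 and 3. Each candidate list includes background regions, and the q-values at these 3 genes were all above 0.05. At a deposited pooled q-value of 0.05 or lower, 24 of 49 members had a summit (49%, interval 35.6 to 62.5), against 31.1% of all genes. By group, 11 of 25 MED genes (44%, interval 26.7 to 62.9), 8 of 15 Taf genes (53.3%, 30.1 to 75.2) and 5 of 9 TfII genes (55.6%, 26.7 to 81.1) passed. These intervals overlap, and the 8 Taf genes include Taf10 and Taf10b, which share a region.

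Several of the genes passing the q-value threshold lay just under the weakest IDR peak. MED19, a head subunit, had the strongest signal without one, 51.2 at rank 2736, with rank 4616 in replicate 2 and 1912 in replicate 3. Taf8 followed at 50.4 (rank 2817), but its summit was 723 bp upstream of Taf8 and 67 bp from Mvb12. Taf13, a histone-fold partner of Taf11, had 49.5 (rank 2918), with rank 1503 in replicate 2 and 19461 in replicate 3. The Taf13 summit was 221 bp upstream of Taf13 and 25 bp from the start of nesd, on the opposite strand. MED6, a head subunit, had 48.7 (rank 3004) with rank 1090 in replicate 3. The pooled summit (3R:9767842) was 27 bp from the nearest of its 5 TSSs, which lies inside the gene, the 5′ end being at 3R:9768984. Naa80, on the opposite strand, started 8 bp from that summit. The strongest replicate 2 candidate of MED6, at rank 14837, was another region, with a summit 1131 bp from the pooled one. Taf10 and Taf10b are divergent neighbours that share one region, with signal 48 at rank 3104, so they are one measurement. Taf1, the largest TFIID subunit, had 47.9 (rank 3109), and Taf7, which binds Taf1, had 45.4 (rank 3427).

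At the lower end, the weakest pooled candidates were those of MED22 (signal 14, rank 28794), TfIIFbeta (16.3, rank 22735), MED24 (17.8, rank 19470), Taf11 (19.4, rank 16767) and MED1 (20.6, rank 14891). The q-values of all of these were at or above 0.34. Among the other TfII genes, TfIIB reached 38.5 (rank 4605) and TfIIS, the gene of an elongation factor, 37.1 (rank 4920). The TfIIB summit was 354 bp upstream, and the start of Bug22 was nearer, at 66 bp. The TfIIS summit was 805 bp upstream, and solo started 94 bp from it. Both neighbours are on the opposite strand. Weaker candidates lay nearer the members' own starts: TfIIB 32.7 (rank 6170) at -1 bp and TfIIS 16.7 (rank 21803) at 153 bp. TfIIEalpha reached 33.1 (rank 6023), TfIIFalpha 24.3 (rank 10839) and TfIIEbeta 22.7 (rank 12357). In replicate 3 neither TfIIFalpha nor TfIIEbeta had a candidate, while TfIIFbeta had one at rank 16982. The differences between these genes carry no replicate error.

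The rank of the strongest candidate, by signal, summarises each group. Over the 43 members with a pooled candidate the median rank was 4920, against 6919 over the 8728 genes with one. The median was 7180.5 for the 22 MED genes, 3109 for the 13 Taf genes and 5471.5 for the 8 TfII genes. Taf10 and Taf10b, which share a region, both count among the Taf genes. The MED genes held the 6 strongest regions of the members, and their median rank was the weakest of the 3 groups at 1 kb. The order of the medians was not stable: at 250 bp the MED median was 5172 and the TfII median 6170, and the replicates differed too: in replicate 2 the medians were 5469, 3518 and 4990.5, and in replicate 3 they were 5832, 6890 and 7963, in the order MED, Taf, TfII. For all genes the medians were 7221.5 in replicate 2 and 6921 in replicate 3.

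**Figure D2:**
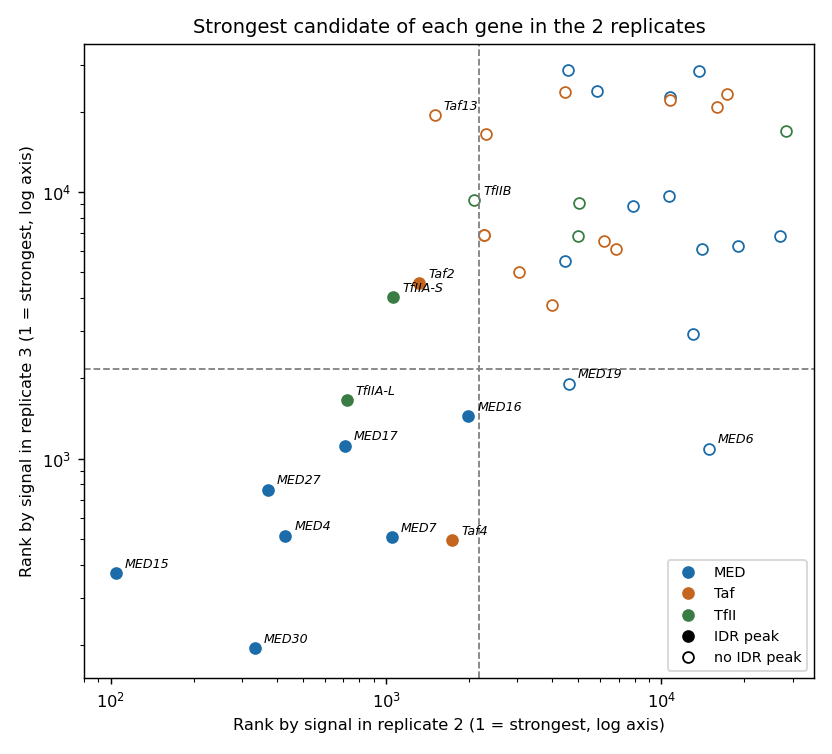
Rank by signal of the strongest candidate within 1 kb of a TSS in replicate 2 (x axis) and replicate 3 (y axis), both log axes, for the 40 members with a candidate in each. Dashed lines mark rank 2177, and filled points have an IDR peak. The 7 MED genes with an IDR peak, Taf4 and TfIIA-L lie inside both lines, while Taf2 and TfIIA-S lie inside the replicate 2 line alone.

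To set the replicate spread beside these counts, the top 2177 regions by signal in either library were used in place of the IDR list, one library at a time. Members with such a summit numbered 13 in replicate 2 (background 12.8%) and 11 in replicate 3 (background 12.7%), a share of 24.5% ± 2.89 (SD, n = 2). For all genes the share was 12.8% ± 0.0507 (SD, n = 2). The MED share was 32% ± 5.66, with 7 genes in replicate 2 and 9 in replicate 3, and all 7 MED genes with an IDR summit were in both. MED6 and MED19 were the additional genes in replicate 3. The Taf share was 13.3% ± 9.43 and the TfII share 22.2% ± 15.7, each with 3 genes in replicate 2 and 1 in replicate 3. Without replicate 2, therefore, the Taf count fell from 2 to 1, leaving Taf4, and the TfII count from 2 to 1, leaving TfIIA-L. Taf13 and TfIIB were the additional genes in replicate 2. In both replicates at once 9 of 49 members were called (18.4%, interval 9.98 to 31.4), against a background of 9.34%. That interval covers counting error only, and no test was made against the background.

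More of the Taf and TfII genes ranked higher in replicate 2 than in replicate 3, and the MED genes were evenly split. Of the 40 members with a candidate in both, 26 (65%) ranked higher in replicate 2, against 49.2% of the 7436 genes with both. The split was 10 of 20 for MED, 11 of 14 for Taf and 5 of 6 for TfII. Taf10 and Taf10b, which share a region, are both counted in the Taf split, and the groups are small. Across those members, which share both libraries, Spearman's rho between the replicate ranks was 0.57, and across all genes it was 0.69. The replicate summits lay within 100 bp of each other at 21 of 40 members (52.5%) and at 46.9% of all genes. Neither library's quality was measured here, and its part in this difference was not tested.

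Called member summits sat close to a start site of the member, which for TfIIA-L was one inside the gene. Their median distance to the member's TSS was 75 bp (n = 11), 10 were upstream, and 10 lay within 250 bp, MED15 being the exception. Over all 1766 called genes the median was 168 bp, with 82.6% upstream and 65.6% within 250 bp. The 32 members with a candidate but no IDR summit had a median distance of 201.5 bp, and 65.6% of them were upstream. The median GC content around the summit was 35.8% at called members and 37.3% at all called genes. It was 40.5% at the other members with a candidate and 44.3% at the other genes with one. No IDR summit was found inside a member's gene beyond 1 kb of its TSSs.

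**Figure D3:**
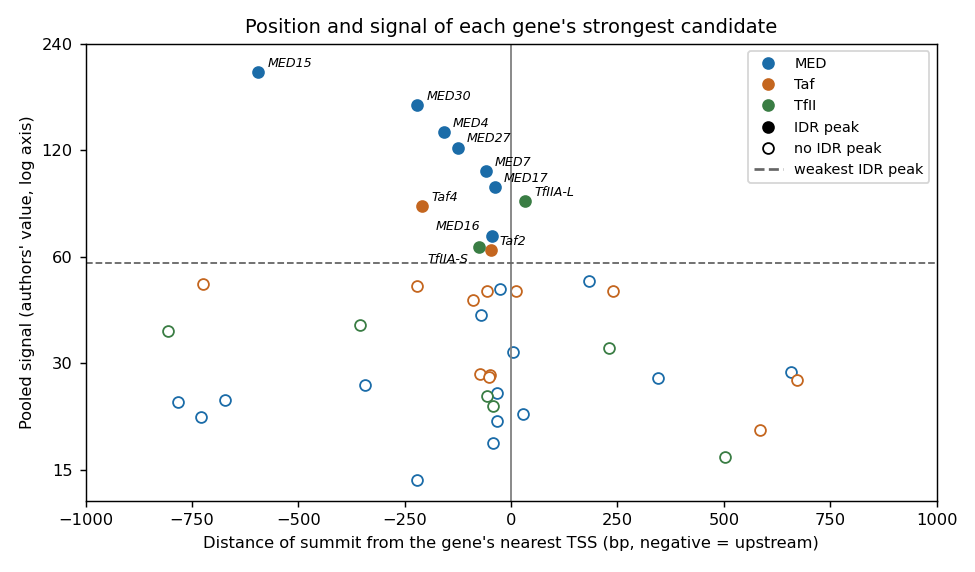
Distance of the strongest pooled summit from the member's nearest TSS (x axis, bp, negative upstream) against pooled signal (y axis, authors' value, log axis) for 43 members. Filled points have an IDR peak, and the dashed line is the weakest IDR peak. All but MED15 of the 11 called summits lie within 250 bp of the TSS, and TfIIA-L alone is downstream.

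Most called member summits could not be assigned to the member alone. At 9 of 11 the window of 1 kb also held the TSS of another coding gene on the opposite strand, against 56% of all called genes, and at MED15, MED30 and Taf2 that gene's start was the nearer. Members are often arranged this way: 36 of 49 (73.5%) had a coding TSS on the other strand within 1 kb upstream, against 36.2% of all protein-coding genes. Genes so arranged were called more often in general, 21.5% (1084 of 5052) against 7.67% (682 of 8893) for the rest. Among divergent genes the members' share, 9 of 36 or 25%, was near that background. Among the others it was 2 of 13 (15.4%), namely MED4 and TfIIA-S. By group, 6 of 19 divergent MED genes (31.6%), 2 of 12 Taf genes (16.7%) and 1 of 5 TfII genes were called. The part of the gene arrangement in the members' share was not tested. Only IDR summits were split by arrangement. The candidate, q-value and both-replicate shares and the median ranks stand beside all genes, fewer of which are divergent.

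**Figure D4:**
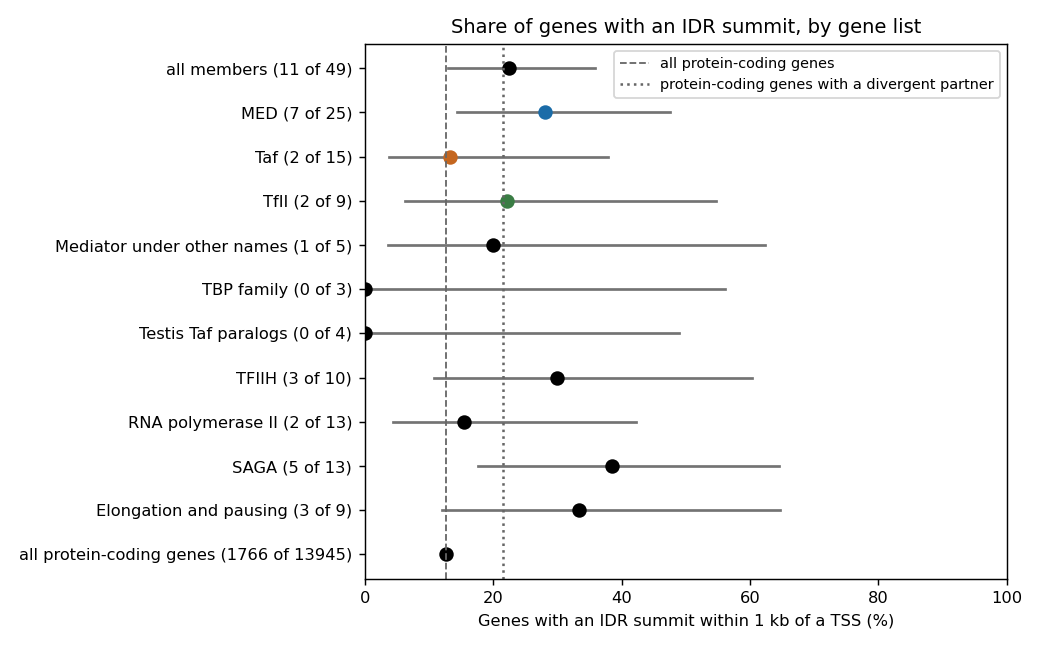
Share of genes in each list with a TSS no more than 1 kb from an IDR summit (x axis, percent, points), with 95% Wilson intervals (horizontal lines) and counts in the labels. The dashed line is all protein-coding genes at 12.7% and the dotted line is genes with a divergent coding partner at 21.5%. Every interval drawn for a list of the machinery includes 21.5%, and all but those of all members, MED and SAGA include 12.7% too. The lists are small and the intervals wide, so holding a line does not show that a list has that share. SAGA has the highest point, at 38.5%.

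Other parts of the same machinery, in lists chosen by known membership, had shares from 0 to 38.5%, with wide intervals. Of 5 Mediator genes named otherwise, ix was called, with signal 62 at rank 1871, though CG12384 started nearer. The kinase module gene skd missed narrowly at 57 and rank 2229. The TBP family (Tbp, Trf, Trf2) had no IDR summit at any of 3 genes, and Trf2 was strongest at 34.4. The 4 testis-specific Taf paralogs outside the symbol rule (can, mia, nht, sa) had neither an IDR summit nor a pooled candidate, like the member Taf12L. In the replicates, mia had candidates at rank 25959 in replicate 2 and 10014 in replicate 3. For nht there was one in replicate 3, at rank 23742. Of 10 TFIIH genes 3 were called, and the strongest region at any gene of the machinery was at Ssl1 (618, rank 5 in the pooled list and in both replicates). That summit was nearer the start of Chro, which encodes an interband chromatin protein. The others were mrn (82.2, rank 1097) and Tfb5 (73.7, rank 1363), the latter 994 bp from the TSS and nearer to Rtnl1.

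Of 13 RNA polymerase II genes, Polr2F (110, rank 617) and Polr2H (103, rank 702) were called. Of 13 genes of the SAGA coactivator, which shares some TAFs with TFIID, 5 were called (38.5%, interval 17.7 to 64.5): Gcn5 (91, rank 881), Ada3 (76.1, rank 1272), Ada2b (60.2, rank 1993), not (59.9, rank 2022) and Sgf29 (57.9, rank 2164). Among the top 2177 regions of either library alone, SAGA had 6 genes in replicate 2 and 2 in replicate 3. Of 9 elongation and pausing genes, Nelf-E (193, rank 164), Nelf-A (76.1, rank 1271) and spt4 (59.6, rank 2036) were called. Another gene's start was nearer than the listed gene's at Nelf-E (RpL14), Nelf-A (CG3337), Gcn5 (ver), Sgf29 (RpL29) and Polr2H (CG11247). No test sets these lists apart from the members.

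Promoter words were searched within 100 bp of the strongest pooled summit on both strands, at the 43 members and the 8728 genes with a candidate. The Gcm octamers ATACGGGC, ATACGGGT, ATGCGGGC and ATGCGGGT were found at 1 member, Taf9, which had no IDR summit, and at 1.2% of genes. They were at 0 of the 11 called members, where a limit of 3 counts leaves room for a share of 27.3% (not a Wilson bound), and at 0.781% of the 2177 IDR peaks. The DNA replication-related element TATCGATA was at MED17 and MED9 (4.65%, against 5.72%), and the M1BP word GGTCACACT at MED23, MED24 and Taf5 (6.98%, against 3.41%). MED23, MED24 and Taf5 had no IDR summit, and their pooled q-values were 0.3, 0.47 and 0.095. Among called genes the M1BP word was at 0 of the 11 members, against 3.45% of all. The GAGA word GAGAGAG was at MED15 alone (2.33%, against 4.29%). The core CGATA, which the element TATCGATA contains, was at 18 members (41.9%, against 33.9%), and TATAAA at 12 (27.9%, against 23.1%). At the 11 called members CGATA was found at 5 (45.5%, against 38.2% of called genes) and TATAAA at 3 (27.3%, against 31.7%). The Gcm, M1BP, GAGA and TATCGATA shares rest on 1 to 3 members each, and a match is a description of letters, not of a bound site.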

How the data were processed

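ChIP-seq with an anti-GFP antibody was done on 2 libraries of Gcm2-GFP embryos, with chromatin sonicated to 200 to 800 bp, per the labels. Per the deposited file lists, the authors made a candidate list from each replicate with a control, a pooled list from both, and a final list by IDR. The deposited signal of each region is the authors' enrichment value, and the deposited −log10 q-value is also the authors' (smallest pooled q 1.63e-04). In each candidate list the authors deposited 30000 regions. Which aligner, peak caller and IDR threshold were used is not given in the sources used here. Read depth is unknown, so no depth stands beside the values.

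From these, summits in dm6 were joined to protein-coding TSSs of Ensembl release 115 (Python 3.11.15, NumPy 2.4.6, SciPy 1.17.1, Matplotlib 3.10.9), after checking that regions lay within the reference lengths. The distance was 1 kb, and the strongest region by signal stood for a gene. The join was tested on simulated data. The sequence is that of the RefSeq dm6 assembly. Shares carry 95% Wilson intervals, and no test was made. Members and lists were chosen with earlier results of these data known. Named are the members with an IDR summit, of the rest the 5 strongest and 5 weakest by pooled signal and those without a candidate, and the genes of other lists with an IDR summit; Taf1, Taf7, TfIIB and the remaining TfII genes, skd and Trf2 were named after their values were seen. The list symbols e(y)1 and rye are the members Taf9 and Taf12L, and mrn, spt4 and Nelf-A were matched through synonyms. Alternatives changed the TSS distance, TSS choice, number of peaks, q-value, replicate and motif window.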

Additional observations from a re-analysis of the deposited data

How the results depend on the processing

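Of 85 alternative values, 58 stayed within 1.5 times a count, or within 1 SD of the replicates for a median rank, and 27 did not. That SD comes from 2 replicate medians per group, which are also judged against it. The medians lie close for MED (5469 and 5832) and far apart for Taf (3518 and 6890). A move of one size can therefore count for MED and not for Taf, and the tally does not compare the groups' stability. With the strongest 1000 IDR peaks the members with a summit fell from 11 to 7, Taf to 0 and TfII to 1, and all genes from 1766 to 896. With pooled candidates at a q-value of 0.05 or lower they were 24 members, 11 MED, 8 Taf and 5 TfII, and 4332 genes. At 2 kb the Taf count was 4, beside 14 members and 2219 genes in all. The additional genes were Taf10 and Taf10b, which share a region at rank 1481, and TfIIEalpha at rank 849 gave the TfII genes 3. The summits were at -1947 bp from Taf10, 1902 bp from Taf10b and 1899 bp from TfIIEalpha (negative upstream). Snx21 was the gene nearest the shared summit and Sugb the gene nearest the other. Counting a summit for its nearest coding TSS alone left 1 Taf gene and 8 members, with 1282 genes in all. Taking the gene's 5′ end alone left 1 TfII gene, TfIIA-S, and 10 members, with 1574 genes in all. Genes with a divergent partner alone, an alternative chosen after the data were seen, left 1 TfII gene and 1084 genes in all. Without one replicate, the Taf and TfII counts ranged from 1 to 3, and the median ranks from 4787.5 to 6700.5 for all members, 5469 to 5832 for MED, 3518 to 6890 for Taf and 4990.5 to 7963 for TfII. The MED median rank was 9156 at 500 bp, 5172 at 250 bp (where it was ahead of the TfII median, 6170), 5402 at 2 kb and 8428 with the 5′ end alone. The element TATCGATA was at 1 member within 50 bp and at 5 within 200 bp. No paired analysis was possible because both libraries form 1 group. The cause of these moves was not tested, beyond the fewer or more regions that each alternative leaves. With unknown depth, an absent candidate means that none was listed, not that binding was absent.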

Other observations

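The word TTGCCA, picked after the member windows had been read, was within 100 bp of the strongest summit at 13 of 43 members (30.2%) and at 16.9% of all genes with a candidate. By group it was at 4 of 22 MED genes, 7 of 13 Taf genes and 2 of 8 TfII genes. At the 11 called members it was at MED30, MED4, Taf2 and Taf4 (36.4%), against 18.3% of called genes. Since the word was chosen on these windows, the values are a description and carry no test. A longer word, gagttgccacatg, was shared by the MED30 and MED4 windows, which are the 2 of the 2177 IDR windows that held it. It was read from these windows, so its count carries no test. Another word of 13 letters, aaaaaataccaaa, was shared by Taf2 and TfIIA-L and was in 4 IDR windows. Further pairs of called members shared words of 10 or 11 letters.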
